A study of Mus musculus with 6 samples.

Results

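The genes described here are the secreted signals Nodal, Gdf1 and Gdf3, the co-receptors Tdgf1 and Cfc1, the inhibitors Lefty1, Lefty2 and Cer1, and the transcription factor Foxh1. They were chosen by name as the core of the Nodal pathway, and all probes annotated to these 9 symbols were taken. Each gene had exactly 1 probe, so the set was 9 of the 27496 probes and 9 of the 13165 named genes on the array. The probe of 8 genes was bright enough for a test, and that of Foxh1 was not. The study measured total RNA of the mouse embryonic stem cell line J1 on one-colour bead arrays to ask how Noggin may bring about cardiac differentiation. Noggin is a secreted protein that binds bone morphogenetic proteins and keeps them from their receptors. There were 6 groups of 1 array each, cells given Noggin at 150 ng/ml for 3 days and mock cells, both at day 0, day 2 and day 4. After that culture the cells were grown without leukaemia inhibitory factor as embryoid bodies, free-floating aggregates in which stem cells differentiate, and Noggin was withdrawn on the second day of this stage.

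The groups follow the source names, because the treatment tag reads Noggin on the mock arrays as well. Whether the day 0 Noggin cells were taken before or after the 3 days of Noggin is not settled by the labels. Day 0 also differs from days 2 and 4 in culture form, so time and aggregation cannot be told apart in comparisons with day 0. With 1 array a group, a difference of Noggin and mock on 1 day was not repeated and gets no p-value. Days were compared over both treatments, and nothing in the labels says that the arrays came from separate cultures, so p-values measure the spread between these arrays only. In such bulk RNA, fewer cells of a type and less RNA per cell cannot be told apart. All 7 stem cell markers on the array were above the array median on both day 0 arrays. Of these 7, 6 passed as lower at day 4 than at day 0 (limma adjusted p under 0.05), where 19.1% of all 15364 probes tested did. Pou5f1, the stem cell transcription factor also called Oct4, was the exception, with signals at days 0, 2 and 4 of 1848.6, 2236.9 and 981.1 with Noggin and 1939.2, 2251 and 1912.4 with mock (day 4 minus day 0 -0.44 on the log2 scale, limma adjusted p = 0.151).

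Nodal is a secreted protein of the transforming growth factor beta family that patterns the early embryo. It signals through activin receptors together with an EGF-CFC co-receptor, Tdgf1 (Cripto) or Cfc1 (Cryptic), and activates SMAD2 and SMAD3, which act with SMAD4 and partners such as FOXH1. Gdf1 and Gdf3 are related ligands of the same receptors. Lefty1 and Lefty2 are both targets of the pathway and its feedback inhibitors, and Cer1 (Cerberus) binds Nodal outside the cell. In the mouse embryo the pathway is known for maintaining the epiblast, forming the primitive streak and setting left and right.

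Promoter windows of 250 bases before to 50 bases after the gene start, from RefSeq on GRCm38.p6, were held for 5 of the 9 genes, Nodal, Gdf1, Tdgf1, Cfc1 and Cer1. Those of Cer1 and Cfc1 are shown because both genes were highest at day 4, and that of Nodal because it had its low point there. They are written 5′ to 3′ on the gene's strand, at chr4:82885102-82885401 on the minus strand for Cer1, chr1:34535398-34535697 on the plus strand for Cfc1 and chr10:61417722-61418021 on the plus strand for Nodal. Capitals mark matches to the SMAD half-site CAGAC on either strand and to the homeodomain core TAATTA.
Cer1: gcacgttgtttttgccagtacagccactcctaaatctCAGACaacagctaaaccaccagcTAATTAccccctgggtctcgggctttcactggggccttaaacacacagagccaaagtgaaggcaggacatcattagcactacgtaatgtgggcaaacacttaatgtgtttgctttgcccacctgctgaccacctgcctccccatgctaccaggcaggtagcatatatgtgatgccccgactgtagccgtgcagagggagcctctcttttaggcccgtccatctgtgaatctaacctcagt
Cfc1: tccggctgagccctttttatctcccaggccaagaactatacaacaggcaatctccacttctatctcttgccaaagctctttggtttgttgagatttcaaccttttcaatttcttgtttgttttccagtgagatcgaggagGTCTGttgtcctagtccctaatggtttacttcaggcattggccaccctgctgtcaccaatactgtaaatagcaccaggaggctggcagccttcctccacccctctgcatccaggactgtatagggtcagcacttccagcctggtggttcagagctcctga
Nodal: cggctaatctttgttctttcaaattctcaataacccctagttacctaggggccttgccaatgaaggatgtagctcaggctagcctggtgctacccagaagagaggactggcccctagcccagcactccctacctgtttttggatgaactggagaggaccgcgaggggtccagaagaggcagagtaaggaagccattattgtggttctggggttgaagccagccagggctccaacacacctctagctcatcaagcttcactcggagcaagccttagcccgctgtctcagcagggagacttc
The Cer1 window held CAGAC at position -213, counted from the gene start, and the homeodomain core TAATTA at -190. The Tdgf1 window, of a gene with steady levels, held the same letters, CAGAC at -113 and the homeodomain core TAATTA at -194. The Cfc1 window held CAGAC on the opposite strand at position -110, and the Nodal window held neither. Both strands were also searched for the homeodomain core TAATCC and for 2 forms of the FOXH1 site, AATCCACA in the first form and AATACACA in the second. These letters were chosen with the windows in view. Among 32851 mouse promoter windows of this length, 49.6% held CAGAC, 5.29% held TAATTA and 7.06% held TAATCC. The first FOXH1 form was in 0.855% and the second in 0.98%. CAGAC, held by 4 of the 5 genes with a window, is thus common, and no match to TAATCC or to either FOXH1 site was found in the 5 genes. A match describes letters and does not show a bound site.

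Signals below are the deposited intensities of single arrays, in arbitrary units, and log2 levels are after background correction and quantile normalisation. Signals of different probes are not compared with each other. The median probe had a signal of 152 to 176.55 on the 6 arrays and a normalised log2 level of 6.69, which is used here as the line between dim and bright probes because the arrays have no detection values here. The plot of levels by day shows the 9 genes, with the array median as a dotted line.

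**Figure D1:**
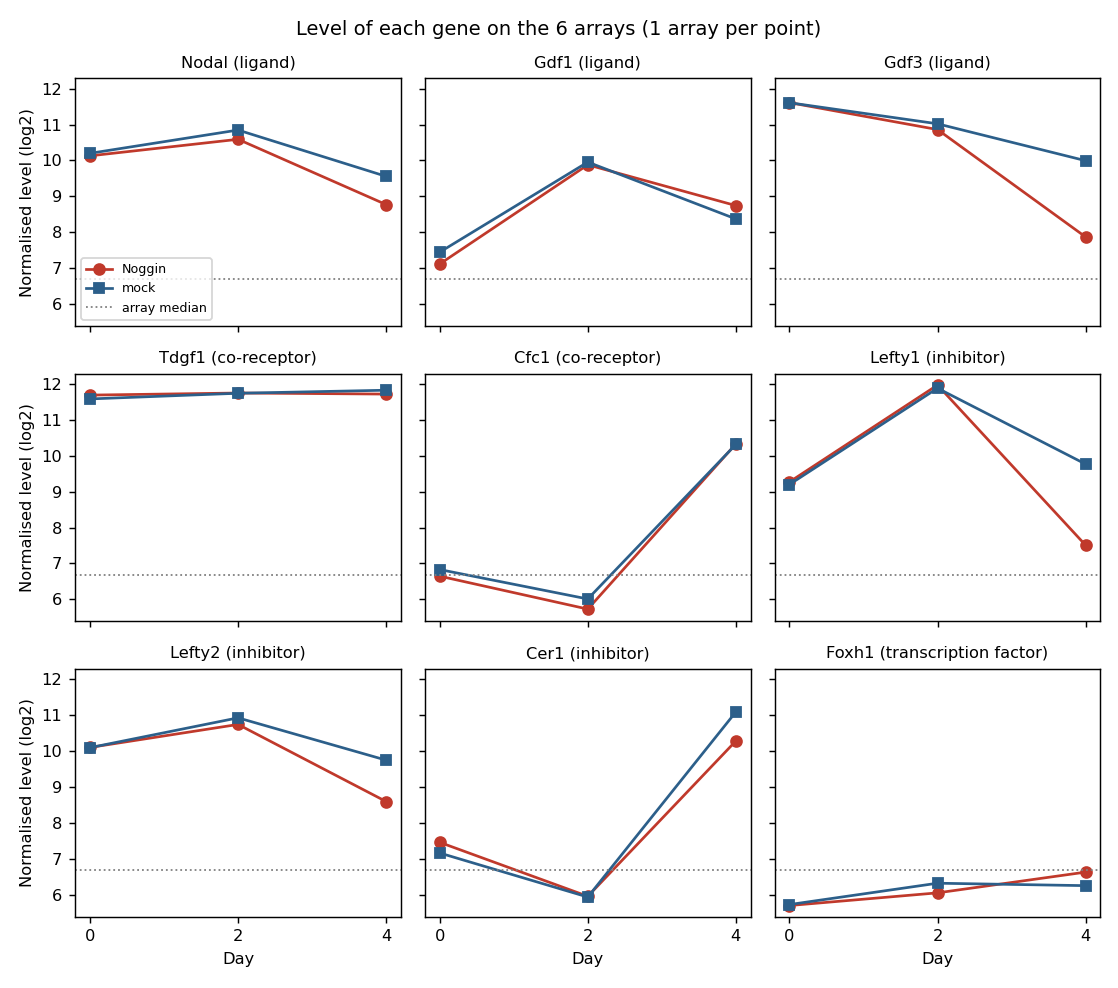
Normalised log2 level of each of the 9 genes (vertical axes) against day 0, 2 or 4 (horizontal axes), with Noggin in red circles, mock in blue squares, 1 array per point and no error bars because no group was repeated. The treatments run close together to day 2 and part at day 4 for Lefty1, Gdf3 and Lefty2, while Cfc1 and Cer1 climb at day 4 in both and Foxh1 stays under the dotted array median.

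Nodal itself was highest at day 2 and lowest at day 4 in both treatments. Its signals at days 0, 2 and 4 were 1195.6, 1839.1 and 479.2 with Noggin and 1221.2, 1842.3 and 793.4 with mock. The 2 day 4 arrays lay below all 4 earlier arrays. Nodal fell by 1.56 on the log2 scale between day 4 and day 2 (SE 0.184, limma adjusted p = 0.00514) and was 2-fold lower at day 4 than at day 0 (SE 0.184 on the log2 scale, adjusted p = 0.0089). The day 2 level was 0.56 above day 0 on the log2 scale (SE 0.184, adjusted p = 0.0715), which did not pass the threshold of 0.05. Of fits that each left out 1 array, the fall between day 4 and day 2 did not pass without either day 2 array (highest adjusted p 0.0739) and the fall from day 0 did not pass without the day 0 Noggin array (0.125). In each such fit the day of the missing array is 1 array that the model fits exactly, so the spread comes from the other days and from all probes, and a pass says little about the spread on that day.

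Gdf1, a ligand that forms dimers with Nodal, was highest at day 2 in both treatments. Its signals were 203.9, 1127.8 and 469.2 at days 0, 2 and 4 with Noggin and 236.2, 1017.1 and 382.3 with mock. The 3 pairs of arrays, 1 pair a day, did not overlap. Gdf1 rose by 2.64 on the log2 scale between day 2 and day 0 (SE 0.179, limma adjusted p = 0.00109, 6.22-fold), which passed in all 6 fits without 1 array. It then fell by 1.36 between day 4 and day 2 (SE 0.179, adjusted p = 0.00636), and its day 4 level was still 1.28 above day 0 (SE 0.179, adjusted p = 0.00366). The fall did not pass without either day 2 array (highest adjusted p 0.076), nor did the rise to day 4 without the day 0 Noggin array (0.0629). In mammals Gdf1 can share a transcript with the ceramide synthase gene Cers1, so its probe may read both.

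Gdf3, a ligand made by undifferentiated stem cells, was highest at day 0. Its signals were 3191.2, 2191.6 and 282.9 at days 0, 2 and 4 with Noggin and 3045.3, 2075.3 and 1049.9 with mock. Every later day was lower in both treatments, and the day 4 Noggin array was the lowest of the 6. Over both treatments Gdf3 fell by 2.68 on the log2 scale between day 4 and day 0 (SE 0.493, limma adjusted p = 0.0089) and by 2.01 between day 4 and day 2 (SE 0.493, adjusted p = 0.0326). The fall from day 2 was 7.95-fold within Noggin arrays and 2.04-fold within mock arrays. Without the day 4 Noggin array the values were -1.66 against day 0 and -0.99 against day 2. The difference between day 2 and day 0 was -0.67 (SE 0.493, adjusted p = 0.36). The fall from day 0 did not pass without the day 0 Noggin array (adjusted p 0.0969), and that from day 2 did not pass without either day 2 array (highest adjusted p 0.231).

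The 2 co-receptors behaved differently from each other. Tdgf1 was steady, with signals of 3327.9, 3978.5 and 3296 at days 0, 2 and 4 with Noggin and 3003.8, 3406.7 and 3696.4 with mock. Its largest day difference was 0.14 on the log2 scale, between day 4 and day 0, with a 95% interval of -0.14 to 0.41 (limma adjusted p = 0.39). Cfc1 was dim to day 2 and bright at day 4. Its signals were 166, 121.3 and 1277.2 at days 0, 2 and 4 with Noggin and 177.5, 127.2 and 1297.3 with mock. Both day 4 arrays lay far above the other 4, of which 3 were below the array median. Cfc1 rose by 3.59 on the log2 scale between day 4 and day 0 (SE 0.122, limma adjusted p = 0.000368), the second smallest p among 15364 probes, and by 4.46 between day 4 and day 2 (SE 0.122, adjusted p = 0.000382), the smallest. Against day 2, where it was below the array median on both arrays, the rise was at least 12.4-fold, taking that median as the day 2 level. Both rises passed in all 6 fits without 1 array, of which 2 had a single day 4 array. Between day 2 and day 0 it fell by 0.87 (SE 0.122, adjusted p = 0.00539), within dim signals, and without either day 0 array or the day 2 Noggin array this did not pass (highest adjusted p 0.0962).

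Lefty1 had a sharp peak at day 2. Its signals were 687, 4631 and 234.5 at days 0, 2 and 4 with Noggin and 636.1, 3734.1 and 903.7 with mock. Both day 2 arrays were far above the other 4, and at day 4 the Noggin array lay below both day 0 arrays and the mock array above them. Lefty1 rose by 2.69 on the log2 scale between day 2 and day 0 (SE 0.559, limma adjusted p = 0.0179, 6.46-fold) and fell by 3.29 between day 4 and day 2 (SE 0.559, adjusted p = 0.0121, 9.78-fold). The fall was 22.1-fold within Noggin arrays and 4.33-fold within mock arrays. Averaged over treatments, day 4 minus day 0 was -0.60 (SE 0.559, adjusted p = 0.439), a mean of -1.76 with Noggin and 0.57 with mock. The rise at day 2 did not pass without any 1 of the day 0 or day 2 arrays (highest adjusted p 0.152), nor did the fall without either day 2 array (0.116).

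Lefty2 lay closer to Nodal in its course than Lefty1 did. Its signals were 1177.6, 2024.9 and 428.1 at days 0, 2 and 4 with Noggin and 1132.5, 1939.4 and 887.8 with mock, highest at day 2 and lowest at day 4 in both. Over the 6 arrays the distance between the mean-centred log2 levels of Lefty2 and Nodal was 0.33, the smallest among the 28 pairs of the 8 genes, against 2.51 for Lefty1 and Nodal. Lefty2 fell by 1.66 between day 4 and day 2 (SE 0.274, limma adjusted p = 0.0111) and by 0.93 between day 4 and day 0 (SE 0.274, adjusted p = 0.0406). The fall from day 0 was 2.84-fold within Noggin arrays and 1.27-fold within mock arrays. Its value was -0.40 without the day 4 Noggin array and -1.46 without the mock one. The day 2 level was 0.74 above day 0 (SE 0.274, adjusted p = 0.0964) and did not pass. The fall from day 0 did not pass without any 1 of the day 0 or day 2 arrays (highest adjusted p 0.337), nor the fall from day 2 without either day 2 array (0.115).

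Cer1 moved opposite to the other inhibitors. Its signals were 241.8, 132.6 and 1233.8 at days 0, 2 and 4 with Noggin and 205.8, 123.9 and 2196.6 with mock. Day 2 was the low point, below the array median on both arrays, and both day 4 arrays were far above the rest. Cer1 rose by 3.38 on the log2 scale between day 4 and day 0 (SE 0.257, limma adjusted p = 0.000789) and by 4.74 between day 4 and day 2 (SE 0.257, adjusted p = 0.00084), at least 16-fold with the array median as the day 2 level. Both rises passed in all 6 fits without 1 array, of which 2 had a single day 4 array. Between day 2 and day 0 it fell by 1.37 (SE 0.257, adjusted p = 0.0131), which did not pass without the day 0 Noggin array or either day 2 array (highest adjusted p 0.147).

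Foxh1, the DNA-binding partner of the SMADs, had signals of 109, 137.2 and 155.5 at days 0, 2 and 4 with Noggin and 112.2, 142.4 and 125.8 with mock. All 6 lay below the array median, so its probe was not tested and no change can be read from it.

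Read against the whole array, changes between days were common. Between day 2 and day 0, 4 of the 8 genes tested passed, 2 higher (Lefty1, Gdf1) and 2 lower (Cer1, Cfc1), where 27.4% of all 15364 probes passed, 14.3% higher and 13.1% lower. Between day 4 and day 0, 6 of 8 passed, 3 higher (Cfc1, Cer1, Gdf1) and 3 lower (Gdf3, Nodal, Lefty2), where 38.7% of all probes passed, 19.6% higher and 19.1% lower. Between day 4 and day 2, 7 of 8 passed, 2 higher (Cer1, Cfc1) and 5 lower (Lefty1, Gdf3, Lefty2, Nodal, Gdf1), where 25.7% of all probes passed, 12.8% higher and 12.9% lower. The median difference between day 4 and day 2 was -1.46 for the 8 genes and -0.04 for all probes. Leaving out 1 array, 1 to 7 of the 8 genes passed between day 2 and day 0, and 2 to 7 in the other comparisons, so the counts rest on the full set of 6 arrays.

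**Figure D2:**
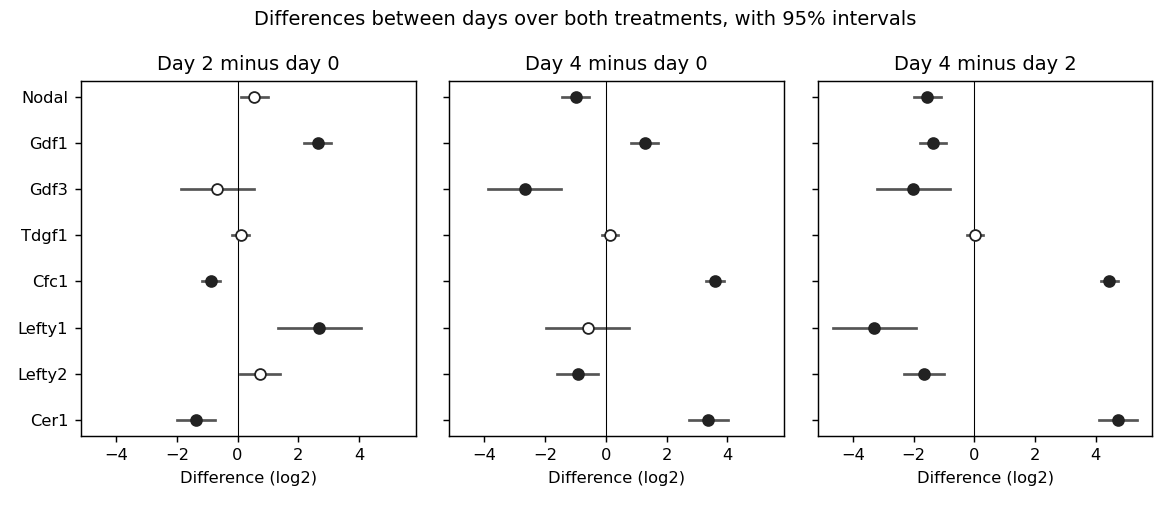
Differences between days on the log2 scale (horizontal axes) for the 8 genes tested, averaged over both treatments, with 95% intervals from the limma model as lines. Filled points passed an adjusted p of 0.05 and open ones did not; between day 4 and day 2, Cer1 and Cfc1 lie above 4, 5 genes lie below -1 and Tdgf1 lies near 0.

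The Noggin and mock arrays were close at day 0 and day 2 for these genes. At day 0, 7 genes were above the array median on both arrays and none differed by 2-fold, as was true of all 12980 such probes (0%). Gdf1 was 0.33 lower with Noggin on the log2 scale and Cer1 0.30 higher, both outside the central 95% of all probes, which ran from -0.23 to 0.23. That range pools probes of all levels above the median, while Gdf1 and Cer1 were little above it at day 0. In the authors' values their differences were -0.24 and 0.21. At day 2, 6 genes were above the median on both arrays and none differed by 2-fold, against 0.0695% of 12945 probes. Nodal had the largest difference of the 6, -0.26, inside the central 95% of -0.36 to 0.36.

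At day 4 the arrays differed. All 8 genes tested were above the median on both arrays, and 3 of them were at least 2-fold lower with Noggin and 0 at least 2-fold higher, where 1.16% of 12715 probes were lower and 1.16% higher to that extent. Lefty1 was 4.79-fold lower, with a signal of 234.5 with Noggin and 903.7 with mock, and had the 14th lowest difference of all probes. Gdf3 was 4.36-fold lower (282.9 with Noggin and 1049.9 with mock), the 18th lowest, and Lefty2 was 2.22-fold lower (428.1 with Noggin and 887.8 with mock). Cer1 and Nodal were 1.75-fold and 1.72-fold lower, just outside the central 95% of -0.73 to 0.71 on the log2 scale. Cfc1 differed by 0.01 on the log2 scale, Tdgf1 by -0.11 and Gdf1 by 0.37, all inside that range.

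**Figure D3:**
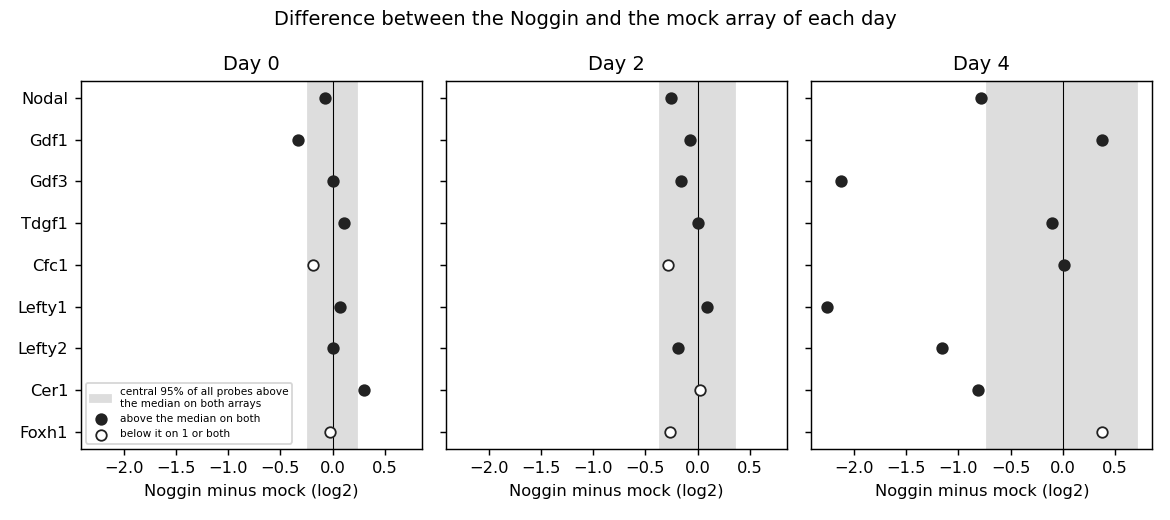
Noggin minus mock on the log2 scale (horizontal axes) for each of the 9 genes at day 0, 2 and 4, 1 array against 1, with the grey band showing the central 95% of all probes above the median on both arrays. Open points were below the median on at least 1 array; at day 4 Lefty1, Gdf3, Lefty2, Cer1 and Nodal lie left of the band.

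Averaged over the 3 days, 0 of the 8 genes passed for Noggin against mock, as did 0% of all 15364 probes in limma (smallest adjusted p 0.969), while 468 probes had an unadjusted p under 0.05. Nodal was the 1 gene of the 8 among these, at -0.37 on the log2 scale (SE 0.15, unadjusted p = 0.048, adjusted p = 0.969), and its array pair was lower with Noggin on all 3 days. Gdf3 averaged -0.76 (SE 0.402), Lefty1 -0.70 (SE 0.457) and Lefty2 -0.44 (SE 0.223). Without the day 4 arrays the Lefty1 average was 0.08 and the Cer1 average, -0.16 (SE 0.21) over all 3 days, was 0.16. In this model a difference of the Noggin effect between days counts as noise.

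Stem cell and mesoderm markers also differed between the day 4 arrays. Of 7 stem cell markers on the array, 5 were at least 2-fold lower with Noggin at day 4, where 1.16% of 12715 probes were. The median difference of the 7 was -1.24 on the log2 scale. Their summed signal at days 0, 2 and 4 was 35482.8, 13047.6 and 4857.6 with Noggin and 33568.9, 13232.4 and 13607.9 with mock. Pou5f1 had 981.1 with Noggin and 1912.4 with mock at day 4. All 5 primitive streak and mesoderm markers measured were at least 2-fold higher with Noggin at day 4, where 1.16% of 12715 probes were. Their summed signal at day 4 was 9917.9 with Noggin and 2201.5 with mock. Of 8 endoderm markers, a list relevant to Cer1 and Lefty1 because early endoderm makes both, 7 were bright enough at day 4 and none was 2-fold apart. Their median difference was -0.24, with 5 lower with Noggin, while Gata6 (0.71) and Cxcr4 (0.97) were higher and made the summed signal 4438.4 with Noggin and 3761.1 with mock. Fibroblast markers, 4 on the array, summed to 2991.2, 910.8 and 555.5 at days 0, 2 and 4 with Noggin and 2231.2, 783.3 and 598.1 with mock. Dcn made up most of the day 0 sums, with 2177.8 with Noggin and 1467.1 with mock. Col1a1 and Postn were too dim to test. At day 4 Dcn was below the array median on both arrays, so those sums are largely of dim probes. Trophoblast markers, 5 on the array, summed to 8680.1 with Noggin and 6395.8 with mock at day 4, with Krt18 2-fold higher and Tfap2c 2-fold lower. Krt8, at 5524.2 with Noggin and 3941.7 with mock, made up most of the sum. The part of these cell types in the Lefty1, Gdf3 and Lefty2 differences was not tested.

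The map of day 4 values sets these genes beside the stem cell markers and the pathway's targets. Lefty1, Gdf3, Lefty2 and Nodal lie at the lower left, with negative values on both axes. Of the 7 stem cell markers, Utf1 was the 1 that passed as lower at day 4 than at day 2 (-1.79, limma adjusted p = 0.00702). Of all probes, 12.9% passed as lower in that comparison. Esrrb, Zfp42, Sox2, Pou5f1 and Nanog had values from -1.51 to -0.08 that did not pass (adjusted p 0.0853 to 0.88), and Klf4 was at 0.22. These values average both treatments. With Noggin, Esrrb, Zfp42, Sox2, Pou5f1 and Nanog all fell from day 2 to day 4. With mock, Nanog rose in log2 level from 11.716 to 12.263 and Zfp42 from 10.528 to 10.821, while Esrrb, Sox2 and Pou5f1 fell. Both axes use the day 4 arrays, so they are not independent, and the position of a gene is a description only.

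**Figure D4:**
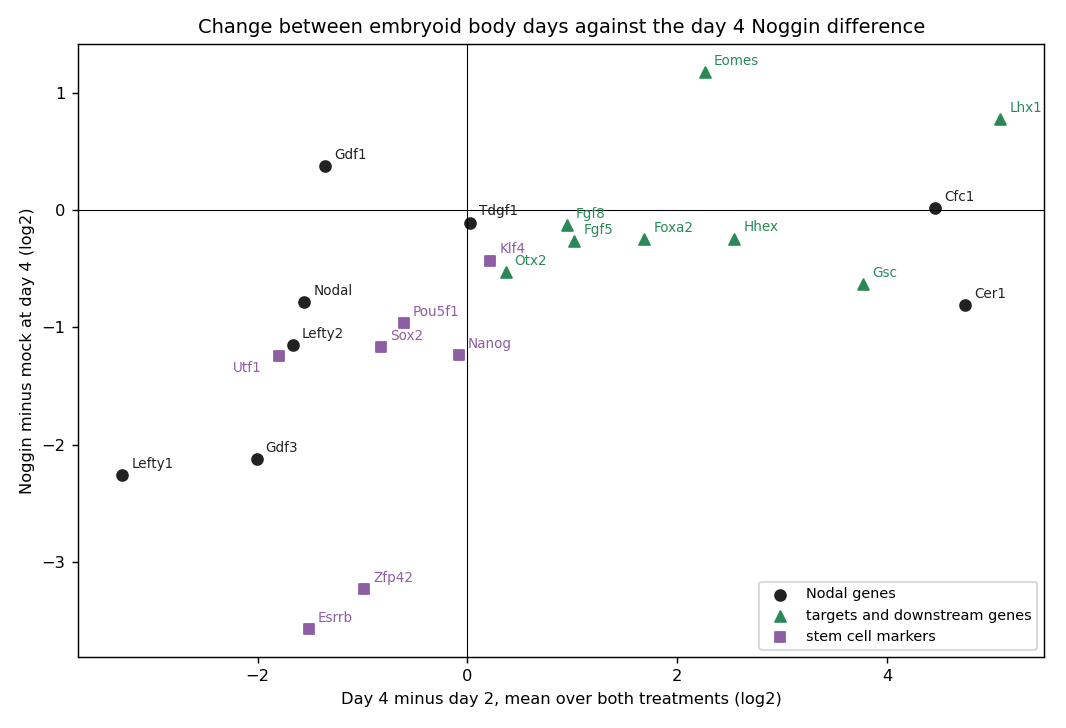
Noggin minus mock at day 4 (vertical axis, log2) against day 4 minus day 2 averaged over treatments (horizontal axis, log2) for the 8 Nodal pathway genes (black circles), 8 target or downstream genes (green triangles) and 7 stem cell markers (purple squares), 1 point per gene. Cfc1, Cer1 and the targets lie to the right, Lefty1, Gdf3, Lefty2 and Nodal at the lower left; the axes share the day 4 arrays.

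Of 42 other pathway genes listed, 29 had a probe and 27 were tested. Between day 2 and day 0, 5 of the 27 passed higher and 5 lower, where 14.3% and 13.1% of all 15364 probes did. Between day 4 and day 0, 12 passed higher and 5 lower, where 19.6% and 19.1% of all probes did. Between day 4 and day 2, 13 passed higher and 1 lower, where 12.8% and 12.9% did. None passed for Noggin averaged over days. All 8 target or downstream genes tested were higher at day 4 than at day 0, and 7 were higher than at day 2. Lhx1 and Gsc, organiser transcription factors, rose by 5.08 (SE 0.205, limma adjusted p = 0.000637) and 3.77 (SE 0.195, adjusted p = 0.000809) between day 4 and day 2. Lhx1 was below the array median on both day 2 arrays and Gsc on the mock one, so the sizes of these rises are less certain. Eomes, a transcription factor of the streak, rose by 2.26 (SE 0.307, adjusted p = 0.00673), and Hhex, of anterior endoderm, by 2.54 (SE 0.121, adjusted p = 0.000809). The Eomes rise did not pass without either day 2 array (highest adjusted p 0.0857), and those of Lhx1, Gsc and Hhex passed in all 6 fits without 1 array. Eomes was the 1 target of 8 at least 2-fold higher with Noggin at day 4, where 1.16% of 12715 probes were. Its signal was 2379.5 with Noggin and 1143.6 with mock. The epiblast genes Fgf5, Fgf8 and Otx2 rose already between day 2 and day 0, by 2.22, 1.95 and 1.49 (limma adjusted p 0.00104, 0.000829 and 0.00209). Fgf8 was below the array median on both day 0 arrays, and its other probe, too dim to test, differed by 0.10. The other Otx2 probe differed by 0.07. Between day 4 and day 2, the other Lhx1 probe rose by 4.28. Other Eomes probes rose by 1.65 and, where too dim to test, 0.23.

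Among receptors and SMADs, changes were smaller. Acvr2b, a type II activin receptor, rose by 0.93 between day 4 and day 0 (SE 0.224, limma adjusted p = 0.0216), and Smad3 by 0.99 (SE 0.218, adjusted p = 0.0158). Neither call held without either day 0 array (highest adjusted p 0.221 and 0.178). Both rises were larger with Noggin. From day 0 to day 4 the log2 level of Smad3 went from 8.378 to 9.765 with Noggin and from 8.332 to 8.926 with mock. That of Acvr2b went from 10.397 to 11.748 with Noggin and from 10.615 to 11.117 with mock. Smad2 did not pass in any day comparison, with differences of -0.02 to -0.17. Inhbb, which encodes an activin subunit, fell by 2.00 between day 2 and day 0 (SE 0.203, adjusted p = 0.00224), and Pcsk6, a convertase that cleaves the Nodal precursor, fell by 1.67 (SE 0.163, adjusted p = 0.00201). Inhbb was below the array median on the day 2 Noggin array, so the size of its fall is less certain. Fst, the activin antagonist follistatin, rose by 1.62 between day 4 and day 0 (SE 0.127, adjusted p = 0.000836). Fstl1, a follistatin relative, fell by 1.78 between day 2 and day 0 (SE 0.177, adjusted p = 0.00212), and Foxa2, an endoderm transcription factor, rose by 1.69 between day 4 and day 2 (SE 0.146, adjusted p = 0.00243), a call lost without the day 2 Noggin array (0.0541). Foxa2 was below the array median on both day 2 arrays, so the size of its rise is less certain. The receptors Acvr1b and Acvr2a and the shared Smad4 rose by 0.48, 0.53 and 0.59 between day 4 and day 2. Acvr1b too was below the median on both day 2 arrays. The repressors Ski and Tgif1 fell by 0.66 and 0.44 between day 4 and day 0. Trim33, a SMAD regulator, rose by 0.55 between day 2 and day 0 and fell by 0.55 between day 4 and day 2. The other Ski probe fell by 0.21 between day 4 and day 0. Between day 4 and day 2, the other Smad4 probe rose by 0.61. Those of Acvr1b and Acvr2a, too dim to test, differed by 0.21 and 0.15. Other Trim33 probes ran from -0.08 to 0.68 between day 2 and day 0 and from -0.61 to -0.165 between day 4 and day 2. None of these 6 genes passed in every fit without 1 array (highest adjusted p 0.172 to 0.359), and the other 2 probes of Tgif1 differed by -0.08 and 0.02 between day 4 and day 0.

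The genes most like each member were found by the distance between mean-centred log2 levels over the 6 arrays among 8895 genes. Lhx1 and Gsc were nearest to Cfc1 (0.94 and 0.95), and Gsc and Chrd, which encodes the BMP antagonist chordin, were nearest to Cer1 (1.03 and 1.29). Cfc1 and Cer1 were themselves 0.87 apart. Col18a1 and Kndc1 were the 2 nearest to both Nodal (0.17 and 0.19) and Lefty2 (0.32 and 0.26). Tdrd12 was nearest to Gdf3 (0.30), Bcl11a to Gdf1 (0.19) and Sec13 to Tdgf1 (0.07), whose own levels barely varied. Lefty1 had no near match by this distance, its nearest gene, Cbr3, being 1.36 away. The distance grows with the size of a gene's changes, and those of Lefty1 were large. In the shape of the course alone, Pearson r with Lefty1 over the 6 arrays was 0.954 for Cbr3. It was 0.985 for Usp26, also among its nearest genes.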

How the data were processed

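Per the labels' protocols, Trizol-extracted total RNA was made into biotin-labelled cRNA, which Illumina Mouse-6 arrays bound and streptavidin-Cy3 made visible. The deposited table of each of the 6 arrays holds 1 intensity per probe, per the file headers. The values were not background-subtracted or scaled. The authors' series matrix holds log2 values, found here to equal quantile-normalised intensities without background correction, with a median of 7.37. For scanner software and genome build, the sources used here give nothing. Array probes were linked to the matrix rows, and so to gene symbols, by equal values within 0.006, for 27492 of 27496 probes, and all 2220 clone accessions present on both sides were equal. 19419 probes had 1 symbol, 6 several and 8071 none; the probes with several named no gene.

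In limma 3.58.1 (R 4.3.3), normexp with an offset of 50 corrected the background of the intensities, followed by quantile normalisation and log2. A probe was kept if 2 or more of the 6 arrays had it above their median, which left 15364. A limma model with additive day and treatment terms was fitted to all 6 arrays, with 2 residual and 4.05 prior degrees of freedom, and Benjamini-Hochberg adjustment ran over all probes kept. The script was tested on simulated data. Single-day differences had no test. All 9 genes were named, each pathway gene was represented by its brightest probe, and pathway genes were named where they passed between days or were 2-fold apart on 1 day. Alternatives covered background correction, scaling, filters, model terms, the authors' values and each array left out; differences within 1 treatment were added after seeing the data. The genes and lists were chosen with earlier results of these data known. The number of arrays limits the precision.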

Additional observations from a re-analysis of the deposited data

Results flagged for a closer look

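For 3 genes a difference ran in opposite directions in different groups, and none of these differences was tested, because each rests on single arrays. Lefty1 at day 4 minus day 0 was -1.76 with Noggin and 0.57 with mock on the log2 scale, a gap of -2.33. Cer1 was 0.81 lower with Noggin than mock at day 4 and 0.30 higher at day 0, so that its Noggin difference moved by -1.11. Gdf1 was 0.37 higher with Noggin at day 4 and 0.33 lower at day 0, a move of 0.70. The day 4 difference of Gdf1 lay inside the central 95% of all probes that day, -0.73 to 0.71. At day 0 the probes of Gdf1 and Cer1 were little above the array median. Opposite directions were counted only where both differences were at least 0.2 and the probe was above the array median on the arrays used.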

How the results depend on the processing

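Values of the 9 genes were recomputed with another background correction, scaling, filter, model or source, or with a gene's probes averaged. Of these 536 values, 517 kept their direction and side of the threshold or moved by under 0.2. The 517 include 59 from averaging probes, which could not change because each gene has 1 probe. Another filter or model left the estimates as they were and could alter only whether a gene passed. Single-day differences have no test, so another filter could not change them. The authors' values are nearly those without background correction, so they repeat that setting. The same limits hold for the pathway calls below. Lefty2 between day 4 and day 0 no longer passed with an offset of 16 (adjusted p 0.0553), median scaling (0.0605) or day as the only term (0.0571), and Cer1 between day 2 and day 0 not in the authors' values (-0.84, adjusted p 0.0511). Nodal between day 2 and day 0 passed with 75th percentile scaling (0.0491). The day 4 difference of Lefty1 was -1.94 and that of Gdf3 -1.87 in the authors' values. With a filter at the 75th percentile, 1 of 6 genes in place of 3 of 8 was 2-fold apart at day 4, since fewer genes were kept. The near-zero Gdf1 average for Noggin turned to 0.004 without background correction, 0.015 with median scaling, 0.003 with 75th percentile scaling and 0.003 in the authors' values. Tdgf1 between day 4 and day 2 turned to -0.033 with median scaling, -0.05 with 75th percentile scaling and -0.03 within Noggin arrays; the cause was not tested. Without the day 4 arrays the Noggin averages of Lefty1 and Cer1 were 0.079 and 0.159.

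Leaving out 1 array leaves 1 residual degree of freedom. Genes called then ranged from 1 to 7 between day 2 and day 0 (4 with all arrays), from 2 to 7 between day 4 and day 0 (6) and from 2 to 7 between day 4 and day 2 (7). Noggin averages ranged from -0.203 to 0.148 for Gdf1, -0.051 to 0.057 for Tdgf1, -1.095 to 0.079 for Lefty1 and -0.395 to 0.159 for Cer1. Tdgf1 between day 4 and day 2 ranged from -0.056 to 0.11. Lefty1 between day 4 and day 0 was 0.571 without the Noggin day 4 array, -1.768 without the mock one and 0.567 within mock arrays. Over all probes, calls ranged from 363 to 7981 between day 2 and day 0 (4207 with all arrays), from 879 to 8349 between day 4 and day 0 (5952) and from 148 to 7154 between day 4 and day 2 (3954); with the 75th percentile filter they were 2718, 3725 and 2562 of 7786 probes, larger shares (34.9%, 47.8% and 32.9%) than the 27.4%, 38.7% and 25.7% of 15364. For Noggin, 4 probes in place of 0 passed without the day 4 arrays. Probes 2-fold apart numbered 135 in place of 295 at day 4 with the 75th percentile filter (2.1% in place of 2.32%), 5 in place of 9 at day 2 without background correction, and 1 in place of 0 at day 0 with an offset of 16. Each of the 9 genes has 1 probe, so averaging a gene's probes changed nothing. The 41 pathway calls passed 348 of 366 times under the settings that keep all arrays, but 181 of 246 times with 1 array left out, and 20 passed in all of those fits. The day term already pairs Noggin with mock by day, and the labels give no replicate numbers for another pairing. Dim probes limit what can be read, such as Foxh1 on all arrays, Cer1, Cfc1, Lhx1, Foxa2 and Acvr1b at day 2, and Fgf8 at day 0. Inhbb was dim on the day 2 Noggin array and on both day 4 arrays.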
